A study of Mus musculus with 6 samples.

Results

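The 35 genes described here are expressed by the endothelium of the liver, the cells that line its sinusoids and larger vessels. They were taken by symbol from a fixed list, each read from its brightest probe set, by mean signal over the 6 arrays, among those annotated to no other gene, and 35 of 35 were found among the 22180 genes measured. The livers came from 6 male C57BL/6 mice, 1 Affymetrix array per mouse. In the 3 controls, mice 13, 21 and 6 (called GFP 13, GFP 21 and GFP 6), the liver expressed green fluorescent protein, and in the 3 mice numbered 26, 28 and 31 (SHH 26, SHH 28 and SHH 31) it expressed Sonic Hedgehog, the secreted ligand that starts Hedgehog signalling. SHH was brought in by hydrodynamics-based transfection, per the series' design text, in which DNA in a large fluid volume is injected quickly and mainly enters hepatocytes. How GFP was brought into the control livers is not stated separately. The age of the mice, the time after injection, the promoter of the introduced DNA and the species of the SHH sequence are not stated in the labels. The study assessed hepatic fibrosis and the expression of fibrosis genes in this model.

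Liver sinusoidal endothelial cells are an unusual endothelium. They are perforated by open pores, lack an organised basement membrane, and clear waste molecules from blood through scavenger and lectin receptors, while the capillaries of most other organs have a continuous lining marked by proteins such as CD34. In fibrotic liver the sinusoids are known to lose these features and to take on those of ordinary capillaries, a change called capillarisation. The genes were therefore read in groups by role, and the sinusoidal genes Stab2, Lyve1, Clec4g and Dnase1l3 were set against the capillary genes Cd34, Vwf and Plvap.

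Promoter sequences are shown for 5 of the genes on which the results turn. These are Emcn and Tek, whose SHH values all lay below the GFP values, the sinusoidal genes Stab2 and Clec4g, and the capillary gene Cd34. Each is the 250 bases before the gene's start, 5′ to 3′ on the gene's own strand, from RefSeq on build GRCm38.p6. Emcn lies at chr3:137340828-137341077 on the plus strand, Tek at chr4:94739039-94739288 on the plus strand, Stab2 at chr10:87007943-87008192 on the minus strand, Clec4g at chr8:3720652-3720901 on the minus strand and Cd34 at chr1:194938571-194938820 on the plus strand. Capitals mark GGAAG or its reverse complement CTTCC, a form of the sequences bound by the ETS family of transcription factors. The endothelial regulator ERG belongs to this family. The shorter ETS core, GGAA or its reverse complement TTCC, was not searched and is not marked.
Emcn: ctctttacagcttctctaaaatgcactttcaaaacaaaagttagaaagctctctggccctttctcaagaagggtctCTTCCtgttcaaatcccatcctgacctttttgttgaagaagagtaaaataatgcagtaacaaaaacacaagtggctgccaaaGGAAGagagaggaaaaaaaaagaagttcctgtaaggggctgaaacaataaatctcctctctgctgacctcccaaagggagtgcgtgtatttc
Tek: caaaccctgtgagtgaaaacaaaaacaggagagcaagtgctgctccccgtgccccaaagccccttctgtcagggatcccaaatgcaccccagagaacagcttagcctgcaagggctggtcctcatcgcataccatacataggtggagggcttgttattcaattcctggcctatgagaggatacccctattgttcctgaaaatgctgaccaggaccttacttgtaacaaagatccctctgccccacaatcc
Stab2: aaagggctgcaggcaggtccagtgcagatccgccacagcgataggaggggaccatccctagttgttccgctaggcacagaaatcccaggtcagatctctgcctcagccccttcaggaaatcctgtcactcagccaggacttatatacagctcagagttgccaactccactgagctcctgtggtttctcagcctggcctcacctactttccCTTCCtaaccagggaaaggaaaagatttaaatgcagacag
Clec4g: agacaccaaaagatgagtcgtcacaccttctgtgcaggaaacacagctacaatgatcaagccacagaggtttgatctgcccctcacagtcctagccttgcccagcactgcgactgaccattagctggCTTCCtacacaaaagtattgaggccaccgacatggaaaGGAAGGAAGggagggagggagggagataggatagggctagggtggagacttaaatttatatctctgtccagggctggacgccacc
Cd34: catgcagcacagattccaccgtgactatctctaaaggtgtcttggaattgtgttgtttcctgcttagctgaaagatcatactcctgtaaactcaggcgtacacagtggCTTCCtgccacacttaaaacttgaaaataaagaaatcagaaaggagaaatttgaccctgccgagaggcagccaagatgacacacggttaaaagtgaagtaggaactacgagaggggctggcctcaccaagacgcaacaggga
Emcn holds 2 stretches of the marked form, Stab2 and Cd34 hold 1 each, Clec4g holds 3, of which 2 share a base, and Tek holds 0. The Tek sequence does hold the shorter TTCC, so its 0 is not an absence of ETS cores. Of the 35 genes, 18 had an entry in the promoter table. The marked ETS form was present on either strand in 15 of these 18 (83.3%), against 63.6% of 27025 promoters of the same length. The core of the SOX family, to which Sox17 and Sox18 belong, was searched as ACAAT on both strands. It was present in 6 of the 18 promoters (33.3%), against 28.3% of all. A sequence of the GATA family, to which Gata4 belongs, was searched as AGATAA on both strands. That form was present in 0 of the 18, against 10.3% of all. Other GATA forms, such as the AGATAG in the Clec4g sequence above, were not searched, so the 0 is not an absence of GATA sequences. The letters of AGATAA can overlap those of the other searched forms. These matches describe letters in a window and not binding.

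Most of the endothelial genes had somewhat lower means in SHH livers, none of them past the threshold over all genes. Of 35 genes, 28 (80.0%) had a lower mean in SHH livers and 7 a higher one, against 56.2% of all 22180 genes with a lower mean. The median difference, SHH minus GFP, was -0.15 on the log2 scale over the 35 genes and -0.03 over all genes, and single genes ran from -0.78 (Emcn) to 0.20 (Cd34). Much of this lower level was that of 1 liver, SHH 28. Without it 19 of 35 genes (54.3%) had a lower mean, against 56.8% of all genes, and the median difference was -0.08. Without GFP 6 these were 23 of 35 (65.7%, against 56.6% of all genes) and -0.05.

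With limma over all genes (two-sided, Benjamini-Hochberg threshold 0.05), 0 of 35 members passed, where 0 of 22180 genes passed in all (0% higher and 0% lower), and the adjusted p of the members ran from 0.409 to 0.993. At an unadjusted p under 0.05, 2 members were lower (5.71%), Emcn and Acvrl1, and 0 higher, against 4.01% of all genes lower (889) and 3.33% higher (738). The 2 became 7 without GFP 21, 9 without SHH 31, 8 with array weights, and 1 without GFP 13 or SHH 26. Of 22180 genes, both directions together, 1570 were at that p without GFP 21, 1561 without SHH 31 and 1690 with array weights. They numbered 1238 without GFP 13 and 1794 without SHH 26, against 1627 with all mice. In 4 members (11.4%) each SHH liver lay below each GFP liver, namely Emcn, Tek, Acvrl1 and Sox17, against 7.25% of all genes, and in 0 members each SHH liver lay above, against 5.26%. Leaving out GFP 21 or SHH 31 made the 4 into 11 (31.4%, against 3111 of 22180 genes) and 13 (37.1%, against 3020 genes). Without GFP 13 the members' 11.4% stood beside 11.5% of all genes. The p-values weigh each difference against the spread between these mice only, with each gene's spread drawn by limma toward that of all genes. With 3 mice in each group, the smallest p that exact permutation allows is 0.1, and no such test was made.

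Over all 41345 probe sets, the arrays had medians of 4.32 to 4.40 and upper quartiles of 5.90 to 5.98. RMA equalises array distributions, so this likeness is no check of the arrays. Correlations between arrays were 0.971 to 0.981. The hepatocyte genes Alb, Ttr and Cps1 were at 12.80 to 13.72 on every array, near the top of the signal range, with Alb the highest signal of each. The sinusoidal markers Stab2 and Dnase1l3 lay above the upper quartile of every array, while the capillary marker Cd34 (4.25 to 4.61) lay near the median. Of the 35 members, 29 lay above the median of all probe sets on every array and 11 above every upper quartile. The other 6 lay below the median on at least 1 array (Acvrl1, Cd34, Emcn, Esam, Sox17 and Wnt9b), a range in which arrays compress differences. The array medians over the 22180 genes alone were higher, at 4.66 to 4.77. Sox18 (4.44 to 4.71) lay below that gene median on every array, and Vwf (4.41 to 4.75) on all but GFP 6. RNA of whole liver was measured, so fewer endothelial cells and less RNA of a gene per cell cannot be told apart.

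**Figure D1:**
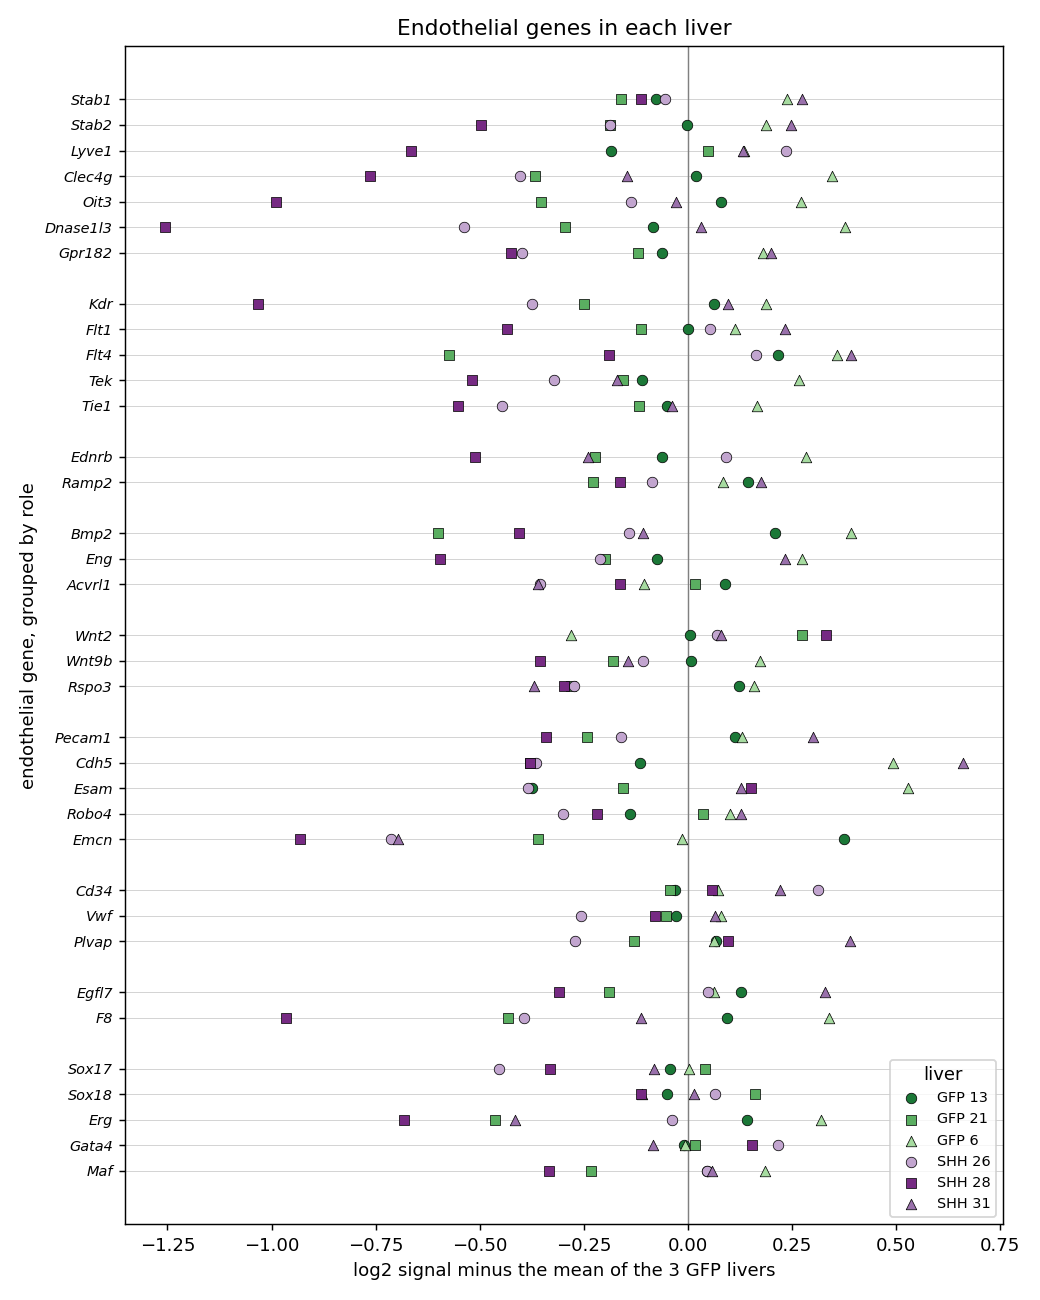
Log2 signal of each of the 35 endothelial genes in each liver, minus the mean of the 3 GFP livers for that gene (horizontal axis), with genes grouped by role (vertical axis) and 1 symbol per liver. SHH 28 (dark squares) is the lowest liver for 21 of 35 genes, and GFP 6 (pale triangles) the highest for 16.

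The endothelial genes varied together from mouse to mouse within each group. Averaged over the 35 genes and relative to the GFP mean of each gene, the shift was 0.01 in GFP 13, -0.19 in GFP 21 and 0.17 in GFP 6. Among the SHH livers it was -0.17 for SHH 26, -0.39 for SHH 28 and 0.04 for SHH 31. SHH 26 and SHH 31 thus lay within the GFP range and SHH 28 below it. SHH 28 was the lowest of all 6 livers for 21 of 35 members (60.0%) and for 17.9% of all genes. It lay below every GFP liver for 26 members, against 29.2% of all genes, while SHH 26 did so for 15 (28.8% of all genes) and SHH 31 for 7 (31.6%). Among the controls, GFP 21 was the lowest for 27 of 35 members (77.1%), against 37.1% of all genes, and GFP 6 the highest for 26, against 28.2%. The endothelial level thus differed between livers of the same group, in the controls as in the SHH livers.

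The scavenger and lectin genes of the sinusoid were lower on average, 6 of 7 by their means, and none passed the test. Dnase1l3, a secreted nuclease that degrades extracellular DNA, was 7.68, 7.47 and 8.14 in GFP 13, GFP 21 and GFP 6 and 7.23, 6.51 and 7.80 in SHH 26, SHH 28 and SHH 31, the order kept below. The groups overlapped through SHH 31, which lay above GFP 13 and GFP 21. Its difference was -0.59 (95% interval -1.28 to 0.10; limma, adjusted p = 0.742), and -0.25 without SHH 28.

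Clec4g, a C-type lectin of sinusoidal endothelium, was 8.01, 7.62 and 8.33 in the GFP livers and 7.58, 7.22 and 7.84 in the SHH livers. SHH 26 and SHH 28 lay below every control and SHH 31 between GFP 21 and GFP 13. The difference was -0.44 (1.35-fold lower, 95% interval -0.92 to 0.05; limma, adjusted p = 0.719), and became -0.27 without SHH 28 and -0.26 without GFP 6. Oit3, a secreted protein found in these cells, was 6.92, 6.49 and 7.11 against 6.70, 5.85 and 6.81. Only SHH 28 lay below every control for Oit3, and its difference of -0.38 became -0.08 without that liver.

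Stab2, the hyaluronan-clearing scavenger receptor, was 7.68, 7.49 and 7.87 in GFP livers and 7.49, 7.19 and 7.93 in SHH livers, a difference of -0.15 (95% interval -0.59 to 0.30) that became 0.03 without SHH 28. Lyve1, a hyaluronan receptor shared with lymphatic vessels and some macrophages, was 6.06, 6.29 and 6.38 against 6.48, 5.58 and 6.38. Here SHH 26 was the highest of all 6 livers and SHH 28 the lowest, and the difference of -0.10 became 0.18 without SHH 28. The related scavenger receptor Stab1, also found on macrophages, differed by 0.04, between 6.32 and 6.75 on all arrays. Gpr182, a chemokine-scavenging receptor of sinusoidal endothelium, differed by -0.21, with 5.83 and 5.80 in SHH 26 and SHH 28 below the GFP range of 6.11 to 6.41 and 6.43 in SHH 31 above it.

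Of the 3 capillary genes, 2 had higher means and 1 a lower one, all by 0.20 or less. Cd34, a surface sialomucin of continuous capillaries, was 4.26, 4.25 and 4.37 in GFP livers and 4.61, 4.35 and 4.51 in SHH livers. SHH 28 lay just below GFP 6, so the groups overlapped, and the difference of 0.20 (1.15-fold higher, 95% interval -0.08 to 0.48) did not pass (limma, adjusted p = 0.795). With arrays set to equal medians, each SHH value of Cd34 lay above each GFP value. Plvap, which forms the diaphragms of fenestrated capillaries, was 6.20, 6.01 and 6.20 against 5.86, 6.23 and 6.53. SHH 26 was its lowest liver and SHH 31 its highest, with a difference of 0.07 (95% interval -0.33 to 0.47). Vwf, the clotting protein stored by endothelium of larger vessels and by platelets, differed by -0.09 (95% interval -0.39 to 0.21), with 4.61 to 4.75 in GFP livers and 4.41 to 4.73 in SHH livers.

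The mean log2 signal of the 4 sinusoidal genes minus that of the 3 capillary genes was 2.32, 2.26 and 2.58 in the GFP livers and 2.24, 1.57 and 2.23 in the SHH livers. Every SHH liver lay below every GFP liver, SHH 26 and SHH 31 by little and SHH 28 by far. The means were 2.39 ± 0.17 (SD, n = 3) and 2.01 ± 0.38 (SD, n = 3), a difference of -0.38 that became -0.16 without SHH 28. The sinusoidal side gave -0.32 of it (7.42 ± 0.24 against 7.10 ± 0.44, SD, n = 3) and the capillary side 0.06 (5.03 ± 0.07 against 5.09 ± 0.15, SD, n = 3). Of the capillary genes, Cd34 (4.25 to 4.61) and Vwf (4.41 to 4.75) lay near the array medians of 4.32 to 4.40. Arrays compress differences at low signal, so the share of each side in the contrast cannot be told from these sizes. The genes of this contrast were chosen with earlier results of these data known, so it is given as a description with no test. The separation between the groups was narrow. It was lost with a second quantile normalization, and in 5 of the 7 contrasts that leave out 1 gene, although the difference stayed negative, from -0.29 without Dnase1l3 to -0.45 without Vwf. Adding Stab1, Oit3 and Gpr182 to the sinusoidal side gave -0.32, with overlapping groups.

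**Figure D2:**
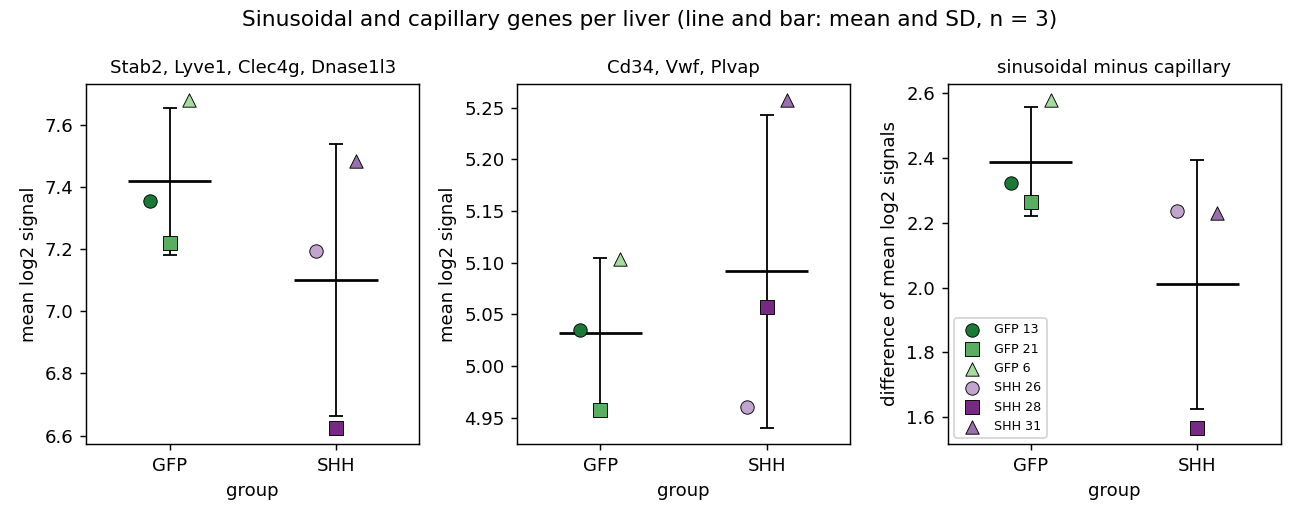
Mean log2 signal per liver of the 4 sinusoidal genes (left), of the 3 capillary genes (middle) and their difference (right), with the group mean (line) and SD (bar) of 3 livers; the vertical axes do not start at 0. In the right panel SHH 28 lies at 1.57, and the other SHH livers at 2.24 and 2.23 lie just under the lowest GFP liver at 2.26.

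Among the receptors for vascular growth factors, 4 of 5 had lower means. Kdr, the main signalling receptor for VEGF-A, was 7.45, 7.14 and 7.57 in GFP livers and 7.01, 6.35 and 7.48 in SHH livers. SHH 31 lay among the controls and the other SHH livers below them, and the difference of -0.44 (95% interval -1.03 to 0.16; limma, adjusted p = 0.783) became -0.14 without SHH 28. Tek, the receptor for angiopoietins, was 6.20, 6.15 and 6.58 against 5.99, 5.79 and 6.14. The groups of Tek did not overlap, narrowly so for SHH 31 under GFP 21, and the difference was -0.34 (1.26-fold lower, 95% interval -0.70 to 0.02; limma, adjusted p = 0.703), or -0.20 without GFP 6.

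Tie1, the partner receptor of Tek, was 5.72, 5.66 and 5.94 in GFP livers and 5.33, 5.22 and 5.73 in SHH livers, a difference of -0.35 (95% interval -0.72 to 0.02) with SHH 31 inside the control range. Flt1, a VEGF receptor that also acts as a decoy, differed by -0.05, and Flt4, the receptor for VEGF-C and VEGF-D, by 0.12, with 95% intervals of -0.46 to 0.36 and -0.45 to 0.69. Flt1 was 5.41 to 5.64 in GFP livers and 5.09 to 5.76 in SHH livers, lowest in SHH 28 and highest in SHH 31. Flt4 was lowest in a control, GFP 21 at 5.73, and 6.12 to 6.70 in the SHH livers. Ednrb, the endothelin B receptor that clears and answers endothelin, was 6.24 to 6.74 in GFP livers and 5.95 to 6.55 in SHH livers, a difference of -0.22 (95% interval -0.65 to 0.21). Ramp2, a partner of the adrenomedullin receptor, was 5.38 to 5.75 and 5.45 to 5.78, a difference of -0.02 (95% interval -0.37 to 0.32).

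The junction and surface genes had lower means in 5 of 5, but 4 of them by 0.13 or less on the log2 scale. The exception was Emcn, which encodes endomucin, a sialomucin of venous and capillary endothelium. Its signal was 5.38, 4.65 and 4.99 in the GFP livers and 4.30, 4.08 and 4.31 in the SHH livers. Each SHH liver lay below each GFP liver, and all SHH values lay below their arrays' median signal. The difference of -0.78 was the largest of the 35 genes (1.72-fold lower, SE 0.19, 95% interval -1.21 to -0.35; limma, unadjusted p = 0.0026, adjusted p = 0.409). It ran from -0.96 to -0.59 when each mouse was left out, and was -0.70 without SHH 28. SHH 26 and SHH 31 were thus both low for Emcn, along with SHH 28.

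The other junction genes lay closer to level. Cdh5, the VE-cadherin that joins endothelial cells, was 7.11, 6.85 and 7.72 in GFP livers and 6.86, 6.85 and 7.89 in SHH livers. GFP 6 and SHH 31 stood above the other 4 livers, and the difference was -0.03 (95% interval -0.73 to 0.67). Pecam1, a platelet and endothelial adhesion molecule, was 5.68 to 6.06 in GFP livers and 5.59 to 6.23 in SHH livers, a difference of -0.07 (95% interval -0.49 to 0.36). Robo4, a guidance receptor that steadies vessels, was 5.33 to 5.57 and 5.17 to 5.60, a difference of -0.13 (95% interval -0.47 to 0.21). Esam, an adhesion molecule of endothelial tight junctions, varied most among the controls, at 3.95, 4.17 and 4.86, against 3.94, 4.48 and 4.45 in SHH livers. Its difference was -0.03 (95% interval -0.59 to 0.52). All of these groups overlapped.

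When each member was expressed relative to the median of the 35 members on its array, an alternative chosen after seeing the data, Emcn remained lower in every SHH liver, with a difference of -0.65. Clec4g (-0.30), Kdr (-0.30) and Tie1 (-0.21) were then also below every control in each SHH liver, Stab1 was above every control (0.17), and Tek, Acvrl1 and Sox17 overlapped. The share of all genes without overlap on this scale was not counted, so these members have no background to be read against. This is a description of relative levels with no test.

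**Figure D3:**
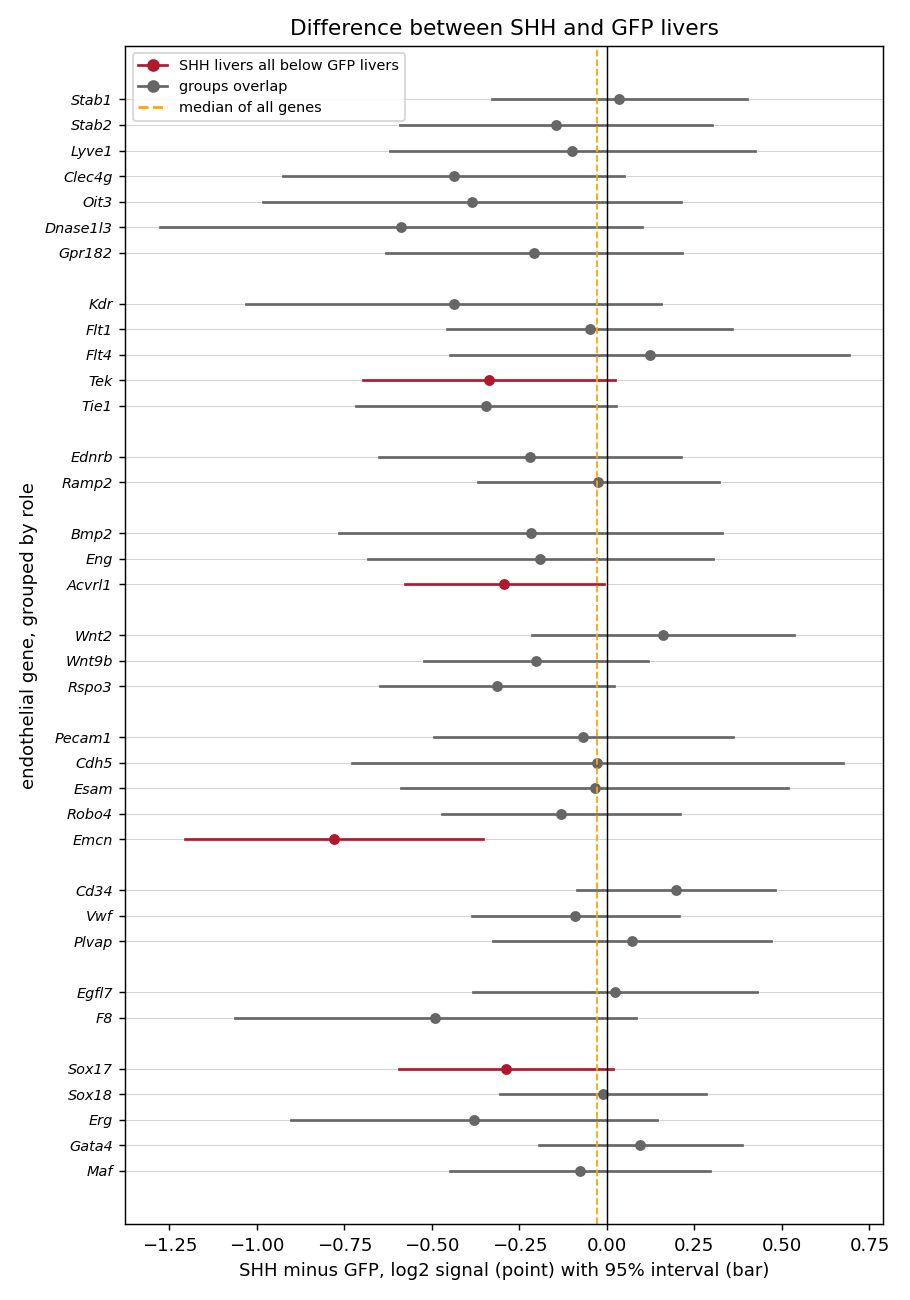
Difference of mean log2 signal, SHH minus GFP (points), with 95% intervals from limma (bars), for the 35 endothelial genes grouped by role; red marks genes whose SHH livers all lay below the GFP livers, and the dashed line is the median of all 22180 genes at -0.03. The intervals of Emcn (-1.21 to -0.35) and Acvrl1 (-0.58 to -0.01) lie below 0, and those of the other genes include it.

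BMP ligands from sinusoidal endothelium tell hepatocytes to make the iron hormone hepcidin, and endothelial cells carry BMP receptors of their own. The 3 BMP genes among the members all had lower means. Acvrl1, the receptor for BMP9, was 4.30, 4.22 and 4.10 in GFP livers and 3.85, 4.04 and 3.85 in SHH livers. Its groups did not overlap, at a difference of -0.29 (1.23-fold lower, 95% interval -0.58 to -0.01; limma, unadjusted p = 0.0452, adjusted p = 0.672), but all 6 values lay below the median of their arrays. The co-receptor Eng differed by -0.19 and the ligand Bmp2 by -0.22, with 95% intervals of -0.68 to 0.30 and -0.77 to 0.33. Eng was 6.97 to 7.44 in GFP livers and 6.57 to 7.40 in SHH livers, and its difference became 0.01 without SHH 28. Bmp2 was spread mostly among the controls, at 5.70, 4.89 and 5.88, against 5.35, 5.08 and 5.38 in SHH livers. Its difference ran from -0.52 without GFP 21 to -0.022 without GFP 6. Of 10 other BMP genes, 6 had higher and 4 lower means and 0 passed. Hamp, the hepcidin gene, differed by -0.10 (95% interval -0.46 to 0.26), with overlapping groups. Bmp6, a BMP ligand counted below with the other sinusoidal genes, differed by -0.20, also with overlapping groups. Gdf2, which encodes BMP9 itself, differed by 0.26 and was higher in each SHH liver (5.48 to 5.68) than in any GFP liver (5.21 to 5.43), and the targets Id3 and Smad6 differed by 0.34 and 0.20.

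The Wnt ligands of endothelium near the central vein keep neighbouring hepatocytes in their pericentral state. Rspo3, which enhances Wnt signals, was 6.31, 5.91 and 6.35 in GFP livers and 5.92, 5.89 and 5.82 in SHH livers, closely alike among the SHH livers. Only GFP 21 lay within their range, and the difference was -0.31 (95% interval -0.65 to 0.02; limma, adjusted p = 0.702). Wnt9b differed by -0.20 and Wnt2 by 0.16, with 95% intervals of -0.52 to 0.12 and -0.21 to 0.54. Wnt9b was 4.41 to 4.77 in GFP livers and 4.24 to 4.48 in SHH livers. Wnt2, at 4.51 to 5.07 and 4.87 to 5.13, was highest in SHH 28, the liver lowest for most other members. Without GFP 6 the difference of Wnt2 became 0.020 and that of Wnt9b -0.11. Of 11 Wnt receptors and targets of central hepatocytes, 11 had lower means, against 56.2% of all genes, and 0 passed. Their median difference was -0.13. Glul differed by -0.0057, Cyp2e1 by -0.094, Axin2 by -0.12 and Lgr5 by -0.13, all with overlapping groups. The largest were Tbx3, a transcription factor (-0.42), and Cyp1a2, a drug-metabolising P450 (-0.35, 11.39 to 11.89 in SHH livers against 11.98 to 12.01), while Rnf43, a brake on Wnt receptors, differed by -0.25.

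Of 5 transcription factors, 4 had lower means. Sox17, a regulator of arterial and endothelial identity, was 4.72, 4.80 and 4.76 in GFP livers and 4.31, 4.43 and 4.68 in SHH livers. The groups did not overlap, with SHH 31 close beneath the controls, and the difference was -0.29 (1.22-fold lower, 95% interval -0.59 to 0.02; limma, adjusted p = 0.700). Erg, an ETS factor that maintains endothelial identity, was 5.75, 5.15 and 5.93 against 5.57, 4.93 and 5.20, a difference of -0.38 (95% interval -0.90 to 0.14) with GFP 21 among the SHH livers. It ran from -0.61 without GFP 21 to -0.22 without GFP 6. Gata4, which specifies the sinusoidal type and is also made in other liver cells, was 6.35 to 6.38 in GFP livers and 6.58, 6.52 and 6.28 in SHH livers, a difference of 0.10 (95% interval -0.19 to 0.39). SHH 31 lay below the controls for Gata4 and the other SHH livers above them. Maf, a further factor of sinusoidal endothelium that macrophages also make, was 6.93 to 7.35 and 6.83 to 7.22, a difference of -0.08 (95% interval -0.45 to 0.29). Sox18, a factor of developing vessels and lymphatics, was 4.44 to 4.71 and 4.44 to 4.62, a difference of -0.01 (95% interval -0.30 to 0.28).

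Of the 2 secreted factor genes, 1 had a lower and 1 a higher mean. F8, the clotting factor VIII made in liver by sinusoidal endothelium, was 7.74, 7.21 and 7.98 in GFP livers and 7.25, 6.68 and 7.53 in SHH livers. SHH 28 lay below all other livers, and the difference of -0.49 (1.40-fold lower, 95% interval -1.06 to 0.08; limma, adjusted p = 0.741) became -0.25 without it. Egfl7, a secreted protein of vessel sprouting, was 5.87 to 6.19 in GFP livers and 5.75 to 6.39 in SHH livers, with SHH 28 lowest and SHH 31 highest. It differed by 0.02 (95% interval -0.38 to 0.43).

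Other endothelial genes, not among the 35, were counted in the same way. Of 19 other pan-endothelial genes measured, 14 had lower and 5 higher means, 0 passed, and the median difference was -0.15. Against 4.01% of all genes lower and 3.33% higher at an unadjusted p under 0.05, 0 of the 19 were higher and 3 lower. These were Bcl6b, a transcriptional repressor (-0.70, 3.80 to 4.37 in SHH livers against 4.51 to 5.10), Myct1 (-0.46, with each SHH liver below the GFP range of 5.15 to 5.40) and the adhesion receptor Adgrl4 (-0.70, 5.31 to 6.30 against 6.20 to 7.03). All SHH values of Bcl6b lay below their arrays' medians, where arrays compress differences. SHH 28 was again lowest on average in this list, at -0.43, against -0.12 in SHH 26 and 0.09 in SHH 31. Of 7 other sinusoidal genes, 5 had lower means and 0 passed, with Ehd3 at -0.32, Adam23 at 0.34 and the antibody receptor Fcgr2b at -0.24.

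Genes of continuous capillaries and basement membrane had higher means in 9 of 14 and 0 past the threshold. At an unadjusted p under 0.05, 4 of the 14 were higher and 0 lower, against 3.33% and 4.01% of all genes. The basement membrane collagens Col4a1 and Col4a2 were 5.69 to 6.24 and 5.45 to 5.82 in SHH livers, above every control (5.56 to 5.64 and 5.34 to 5.42). Their differences were 0.36 (limma, adjusted p = 0.668) and 0.32 (adjusted p = 0.675). Stellate cells make these collagens too. The surface antigen gene Ly6c1 differed by 0.49 but was dim, under the lower quartile of all 6 arrays, at 1.70 to 2.63.

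Of 9 VEGF and angiopoietin ligands and co-receptors, 7 had lower means and 0 passed, with Vegfd at -0.39, Vegfc at -0.21 and the co-receptor Nrp2 at -0.19. The vasoactive and flow genes had 4 of 8 lower, with Calcrl, the adrenomedullin receptor, at -0.28, its partner Ramp3 at -0.18 and the peptide Adm at -0.22. Of 11 Notch genes, 7 had lower means, against 56.2% of all genes, and 0 passed. Dll4, an endothelial Notch ligand, was 4.94, 4.83 and 4.87 in GFP livers and 4.72, 3.96 and 4.30 in SHH livers, below every control (-0.55; limma, unadjusted p = 0.0153, adjusted p = 0.577). For Dll4, SHH 28 and SHH 31 lay below their arrays' medians. In 3 of the 11 genes, the receptor Notch4 (0.27) among them, each SHH liver lay above each GFP liver, against 5.26% of all genes. Only 1 of the 11, Dll4, had each SHH liver below each GFP liver, against 7.25% of all genes. The ligand Jag2 differed by -0.17.

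The genes by which endothelium holds leukocytes held the highest differences among the members and the pathway lists. Vcam1 was 6.36, 5.95 and 6.07 in GFP livers and 6.56, 6.60 and 7.93 in SHH livers (0.91; limma, adjusted p = 0.614). Icam1 was 4.78, 5.25 and 5.27 against 5.33, 6.10 and 6.33 (0.82; limma, adjusted p = 0.552). Both lay above every control in each SHH liver and neither passed over all genes. Selp, the P-selectin gene, differed by -0.17. Of 5 genes in this list 4 had higher means. Icam1 and Vcam1 are also made by macrophages and other cells.

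**Figure D4:**
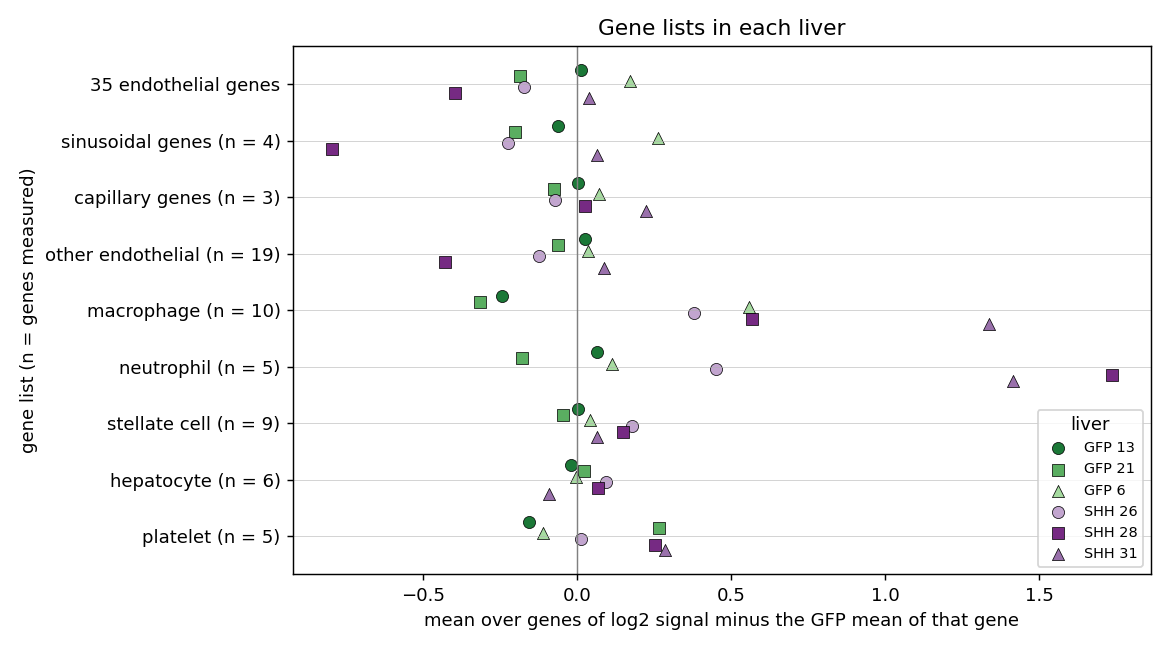
Mean over the genes of a list of log2 signal minus the GFP mean of each gene (horizontal axis), for 9 lists (vertical axis), with 1 symbol per liver. SHH 28 is lowest for the endothelial and sinusoidal genes (-0.39 and -0.79) but highest for neutrophil genes (1.74), and SHH 31 is highest for macrophage genes (1.34).

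Marker genes of other cell types were read beside the endothelial genes. All 10 macrophage genes had higher means in SHH livers, with mean levels of 6.40 to 7.28 in GFP livers and 7.10 to 8.05 in SHH livers (Mpeg1, Cd5l and Clec4f among them). Of these, 7 had an unadjusted p under 0.05, against 3.33% of all genes in that direction, and 0 passed over all genes. GFP 6 and SHH 31, the highest of their groups for the endothelial genes, were also the highest of their groups for macrophage genes, at 0.56 and 1.34 above the GFP mean. SHH 28, the lowest for endothelial genes, stood at 0.57 for macrophage genes and was the highest of all for neutrophil genes, at 1.74. All 5 neutrophil genes had higher means (Cxcr2, S100a9 and Retnlg among them). Their list levels were 3.08 to 3.37 in GFP livers and 3.71 or more in SHH livers, 0.45 to 1.74 above the GFP mean. The GFP levels lay near the arrays' lower quartiles of 3.13 to 3.22, where signal is dim. In 4 of the 5 genes each SHH liver lay above each GFP liver, against 5.26% of all genes. The part of macrophages and neutrophils in the endothelial values was not tested.

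The remaining marker lists differed less, each with 0 genes past the threshold. Hepatocyte genes had list levels of 12.24 to 12.28 in GFP livers and 12.17 to 12.35 in SHH livers. Stellate cell genes were higher on average in 8 of 9, at list levels of 6.70 to 6.79 and 6.81 to 6.92, with Dcn at 0.26 and Reln at 0.08, while Rgs5 was the gene with a lower mean (-0.11). Platelet genes, which bear on Vwf and Pecam1, were higher in 5 of 5, at 4.36 to 4.79 and 4.53 to 4.81 (Gp9, Itga2b and Ppbp among them). Smooth muscle genes (Acta2, Tagln and Myh11 among them) were at 5.16 to 5.27 and 5.05 to 5.23. Cholangiocyte genes (Sox9, Krt7 and Epcam) were at 4.33 to 4.56 and 4.37 to 4.53, and mesothelial genes (Upk3b, Wt1 and Gpm6a) at 4.48 to 4.66 and 4.46 to 4.55. Of the lymphatic genes, which bear on Lyve1 and Flt4, Pdpn differed by 0.03 and Mmrn1 by -0.55, the latter lower in each SHH liver (3.17 to 3.68) than in any GFP liver (3.79 to 4.30). All values of Mmrn1 lay below their arrays' medians. The only red cell gene measured, Slc4a1, differed by -0.23. The part of these cells in the endothelial values was likewise not tested.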

How the data were processed

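The deposited log2 signals, 1 column per array, were made by the authors with RMA, per the submitters' processing notes. RMA corrects background, equalises array distributions and summarises probes. Its version is not stated in the sources used here, and the log2 scale was read from the range of the values. Platform annotation named 1 gene for 23521 of 41345 probe sets, several genes for 1814 and none here for the rest. Symbols were compared with RefSeq (GRCm38.p6) through gene identifiers, which changed 0 of them. Of the 35 members, 34 had 1 probe set and Maf had 2. The groups were compared over 22180 genes in R 4.3.3 by limma 3.58.1, using lmFit and eBayes without filter or covariate, and the script was tested on simulated data. Intervals are 95% intervals of that fit. The number of arrays limits the precision.

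Members, lists and alternatives were chosen with earlier results of these data known, so no list-wide p was computed. Every member is named. From each other list up to 3 genes are named, by the smallest p or, for markers, the highest level. Hamp, Bmp6, Glul, Cyp2e1, Axin2 and Lgr5 are named in addition. Alternatives were other probe set rules, a filter on level, other scalings, other priors, array weights, each mouse left out and each contrast gene left out. Levels relative to the members' median were added after seeing the data.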

Additional observations from a re-analysis of the deposited data

How the results depend on the processing

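With limma, 0 members passed in any alternative, and the lowest adjusted p of a member was 0.360. Over all genes 0 passed with all mice kept, and 0 to 46 when 1 mouse was left out, the 46 (30 higher, 16 lower) without SHH 26. Genes at an unadjusted p under 0.05 numbered 1238 to 1794 with a mouse left out, against 1627 with all. They numbered 991 among genes whose mean level was above the median over all genes, where fewer genes were tested. There, 27 of 35 members were tested and 1, Tek (3.7% of members, against 7.6% of genes), had groups that did not overlap with SHH lower. Leaving out each mouse, members with a lower mean numbered 19 (without SHH 28) to 32, those with all SHH livers below the controls 4 to 13 (against 2556 to 3111 of all genes, 1607 with all mice), those at an unadjusted p under 0.05 1 to 9, and the sinusoidal minus capillary difference ran from -0.49 to -0.16 (without SHH 28). Of the 35 differences, 21 kept their sign with each mouse left out and 14 turned in at least 1 case, with these ranges: Cdh5 -0.37 to 0.22, Egfl7 -0.13 to 0.19, Eng -0.40 to 0.012, Esam -0.22 to 0.23, Flt1 -0.19 to 0.14, Flt4 -0.16 to 0.30, Lyve1 -0.27 to 0.18, Maf -0.19 to 0.053, Pecam1 -0.25 to 0.070, Plvap -0.087 to 0.24, Ramp2 -0.14 to 0.048, Sox18 -0.066 to 0.069, Stab1 -0.083 to 0.16 and Stab2 -0.34 to 0.030. Of those that kept their sign, these moved by over 1.5 times from the difference with all mice in at least 1 case: Bmp2 -0.52 to -0.022, Clec4g -0.62 to -0.26, Dnase1l3 -0.90 to -0.25, Ednrb -0.37 to -0.074, Erg -0.61 to -0.22, F8 -0.71 to -0.25, Gata4 0.035 to 0.19, Gpr182 -0.41 to -0.10, Kdr -0.70 to -0.14, Oit3 -0.56 to -0.082, Robo4 -0.26 to -0.045, Tek -0.42 to -0.20, Vwf -0.17 to -0.0067, Wnt2 0.020 to 0.30 and Wnt9b -0.29 to -0.11. The others moved by less from that difference, with these ranges: Acvrl1 -0.36 to -0.25, Cd34 0.14 to 0.27, Emcn -0.96 to -0.59, Rspo3 -0.45 to -0.23, Sox17 -0.39 to -0.21 and Tie1 -0.50 to -0.24. With all mice kept, 5 small ones turned sign: with array weights Stab1 (-0.046), Plvap (-0.019), Egfl7 (-0.018) and Sox18 (0.018), and with a second quantile normalization Cdh5 (0.0031). The cause was not tested. No paired analysis was possible because the groups have no mouse number in common.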
